A study of Mus musculus with 12 samples.

Results

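The 10 genes described here encode transcription factors that establish B cell identity or act in the germinal centre: *Pax5*, *Ebf1*, *Pou2af1*, *Spib*, *Irf8*, *Ikzf1*, *Ikzf3*, *Ets1*, *Bcl6* and *Bach2*. They were chosen by name, with no measured value in the rule, and are 10 of the 55536 features in the count table. The RNA-seq libraries came from B cells of the spleen, taken from 3 mice per genotype. Cells of each mouse were kept for 48 h in LPS-IL-4, which drives switching to IgG1, and in LPS-BAFF-TGFβ, which drives switching to IgG2b. Each of the 4 groups thus has 3 libraries, 12 in all. All mice were on C57BL/6 and heterozygous for a Cre allele active in the B lineage, controls included. Pdap1-deficient mice were in addition Pdap1F/F, homozygous for a floxed *Pdap1* allele, so that the gene was deleted in developing B cells and the loss preceded the culture. The study used mice of both sexes and several ages, matched between genotypes, and the age of each animal is not given in the sources used here. Resting cells were enriched by removing CD43+ cells before culture.

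Pax5 and Ebf1 commit lymphoid progenitors to the B lineage and keep its genes active, helped by the Ets factors Spi-B and Ets1, the Ikaros family (Ikaros from *Ikzf1*, Aiolos from *Ikzf3*), IRF8, and OBF-1, the octamer coactivator that *Pou2af1* encodes. Bcl6 is the repressor that defines germinal centre B cells, and Bach2 acts with it to delay plasma cell differentiation. Blimp1, encoded by *Prdm1*, works in the opposite direction: it represses *Pax5*, *Bcl6* and other B cell genes while Irf4 and Xbp1 set up secretion. In GRCm38 the genes lie at the following places: *Pax5* at chr4:44524757-44710487, *Ebf1* at chr11:44617317-45008091, *Pou2af1* at chr9:51213708-51240080, *Spib* at chr7:44525993-44532071, *Irf8* at chr8:120736358-120756694. The others are *Ikzf1* at chr11:11685003-11772926, *Ikzf3* at chr11:98464902-98546031, *Ets1* at chr9:32636221-32757820, *Bcl6* at chr16:23965052-23988852 and *Bach2* at chr4:32238804-32586108. *Pax5*, *Spib*, *Ikzf3* and *Bcl6* are on the minus strand.

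The libraries with LPS-IL-4 held 9386667 to 15869143 counts and those with LPS-BAFF-TGFβ 4579793 to 8303482, except for control mouse 1 at 69500640. In the LPS-BAFF-TGFβ library of Pdap1-deficient mouse 1 a single gene held 9.9% of the counts, and at most 3.38% in any other library. *Pdap1* read between 91.4 and 97.8 CPM (read counts scaled by library size, with TMM factors over the 12 libraries) in the control LPS-IL-4 libraries and between 23.3 and 29.9 CPM in the Pdap1-deficient ones. With LPS-BAFF-TGFβ it read 199, 80.3 and 100.3 CPM in control mice 1 to 3 and 23.0 to 26.5 CPM in Pdap1-deficient mice, so the genotypes did not overlap in either stimulation. The log2 fold change of *Pdap1* was -1.82 ± 0.11 (SE, adjusted p = 3.52e-05) and -2.33 ± 0.36 (adjusted p = 0.0929), the latter with an adjusted p of 1.77e-14 in DESeq2 and at -1.85 without control mouse 1. The B cell markers *Cd79a*, *Cd79b*, *Ms4a1* and *Cd22* were each detected in all 12 libraries. One animal stood apart in markers of other cells. The 7 myeloid markers, which include lysozyme (*Lyz2*) and the M-CSF receptor (*Csf1r*), summed to 301.9 CPM with LPS-IL-4 and 531 CPM with LPS-BAFF-TGFβ in Pdap1-deficient mouse 2. In the other libraries the sums were 5.04 to 32.2 CPM and 11.8 to 75.1 CPM, the upper ends being Pdap1-deficient mouse 3. T cell markers summed to 22.4 and 9.29 CPM in mouse 2 and to at most 9.38 CPM elsewhere. Erythroid markers summed to 8.18 to 23.7 CPM and natural killer cell and plasmacytoid dendritic cell markers to at most 3.1 and 5.72 CPM. Where leaving out mouse 2 changed a call of a factor or moved its value by much, the value without it is given beside the result, and the part of its myeloid RNA in them was not tested.

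All 10 factors were detected in every library and passed the filter on low counts in each comparison. Per kilobase of exon, the order of levels differed between stimulations. In control cells with LPS-IL-4, *Pou2af1* led at 167 ± 7.83 CPM per kb (SD, n = 3), followed by *Pax5* at 89.3 and *Ikzf1* at 86.7, then *Irf8* at 54.0 and *Spib* at 53.6, whose ranges overlapped. *Ikzf3* (26.1) and *Ets1* (25.9) overlapped as well, and *Ebf1* (13.8), *Bach2* (10.9) and *Bcl6* (0.828) closed the order. In control cells with LPS-BAFF-TGFβ, *Spib* (107 ± 10.5 CPM per kb), *Pou2af1* (99.1) and *Pax5* (90.5) overlapped at the top, and *Ikzf1* had dropped to 67.0. *Bcl6* was the lowest of the 10 in all 4 groups, at 0.828 to 1.87 CPM per kb. Its counts were the fewest of the 10, at 55 to 147 per library outside the deepest, against 4568 or more for *Pax5*. Of 8 germinal centre genes, *S1pr2*, *Rgs13*, *Gcsam* and *Nuggc* lay at or below 2.48 CPM in each library, while *Fas*, *Ezh2*, *Mybl1* and *Neil1* were higher, from 5.97 CPM (*Neil1*) upward.

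The spread between mice differed by group. The coefficient of variation of the 10 factors had a median of 3.43% in control LPS-IL-4 libraries, 12.8% in Pdap1-deficient LPS-IL-4 libraries, 9.74% in control LPS-BAFF-TGFβ libraries and 10.1% in the remaining group. Pdap1-deficient mouse 2 gave the highest value of its group for 8 of the 10 factors with LPS-IL-4 and for 7 with LPS-BAFF-TGFβ, and mouse 3 the lowest for 7 and for 10. In the plot of expression by library this appears as the wide red groups of *Pax5*, *Ikzf3* and *Bach2*.

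**Figure D1:**
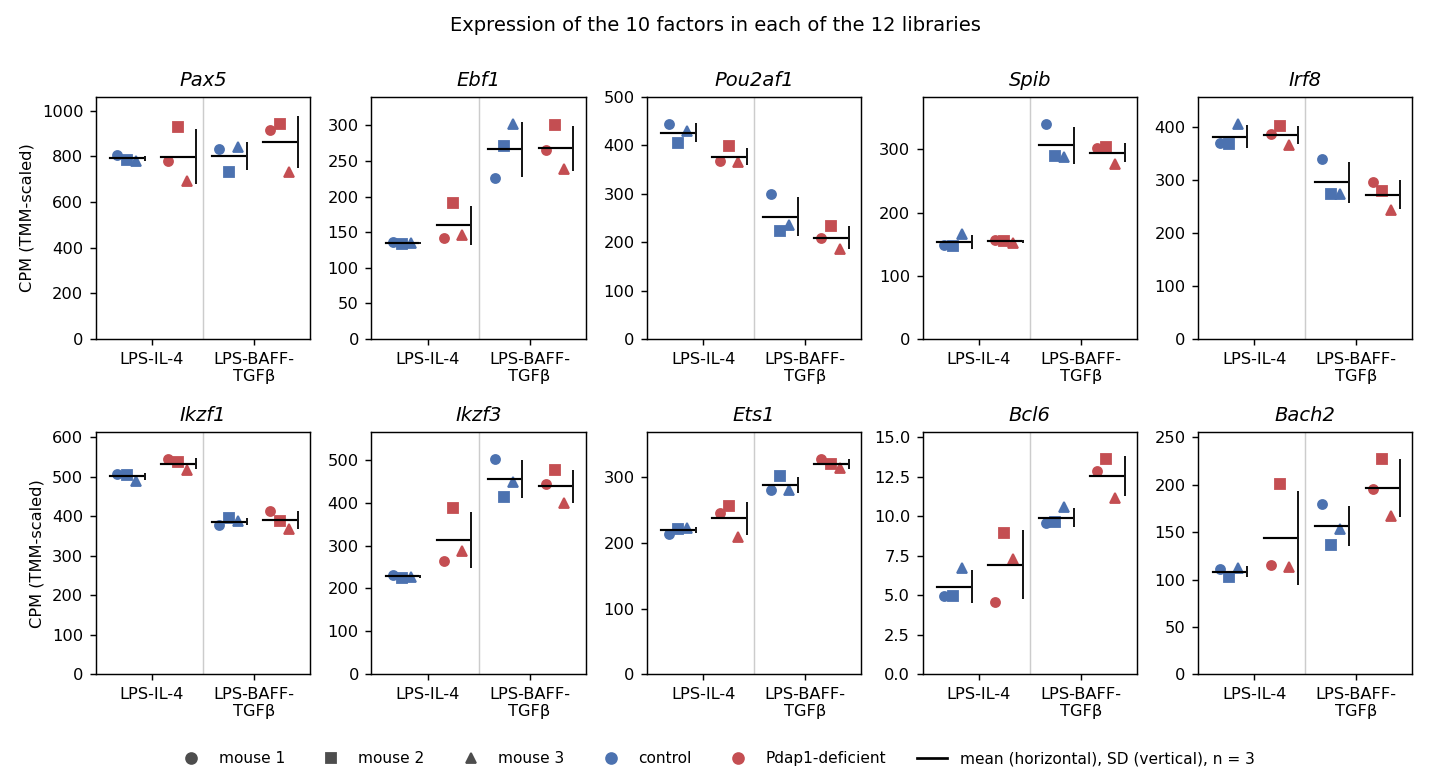
CPM (TMM-scaled, linear axes from 0) of the 10 factors in the 12 libraries. Points are mice (mouse numbers are separate animals in each genotype), horizontal lines group means and vertical lines the SD (n = 3). *Spib*, *Ebf1* and *Ikzf3* sit higher and *Pou2af1* lower with LPS-BAFF-TGFβ in both genotypes, while *Pax5* stays between 690 and 943 CPM throughout.

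Whether loss of Pdap1 altered these factors was examined first with LPS-IL-4. *Prdm1* rose in Pdap1-deficient cells, and none of the 10 B cell factors passed the test in either direction. *Prdm1* read 18.2, 14.1 and 20.0 CPM in control mice 1 to 3 and 50.6, 65.1 and 71.2 CPM in Pdap1-deficient mice, a 3.54-fold difference (log2 fold change 1.82 ± 0.16, adjusted p = 0.000323). All Pdap1-deficient libraries were thus above all controls. By edgeR's quasi-likelihood test 741 of 15074 genes (4.92%) were called at an adjusted p under 0.05, against 0 of the 10 factors. A single factor had an unadjusted p under 0.05, and DESeq2, which called 9.37% of the genes it tested, called 1. The median log2 fold change of the 10 was 0.09, beside 0.02 over all genes. RNA from a culture cannot tell fewer cells expressing a gene from less RNA per cell, here or in the comparisons that follow.

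That single factor was *Ikzf3*, which encodes Aiolos. It read 231, 225 and 228 CPM in control mice and 265, 387 and 288 CPM in Pdap1-deficient mice. Its groups did not overlap, with mouse 2 far above the other animals. The log2 fold change was 0.45 ± 0.13 (95% interval 0.16 to 0.74, edgeR adjusted p = 0.0781, DESeq2 adjusted p = 0.0293). Without mouse 2 the difference was smaller, at 0.28, and passed the test (edgeR adjusted p = 0.0176), as it did without mouse 1 (0.54, adjusted p = 0.0322). With the replicate number as a block it did not (edgeR adjusted p = 0.114), but between genotypes that number pairs unrelated animals.

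*Bach2* read 111, 102 and 113 CPM in control mice and 116, 201 and 114 CPM in Pdap1-deficient mice. The groups were barely separated and the difference rested on mouse 2: the log2 fold change was 0.39 ± 0.20 (95% interval -0.06 to 0.84, adjusted p = 0.269) and 0.09 (adjusted p = 0.537) without it. *Bcl6* read 4.94, 4.95 and 6.75 CPM in control mice and 4.59, 8.94 and 7.30 CPM in Pdap1-deficient mice, with overlapping groups. Its log2 fold change was 0.31 ± 0.26 (interval -0.25 to 0.88) and 0.09 without mouse 2. For neither repressor of plasma cell genes was the estimate below 0 in the cells in which *Prdm1* was higher, and the intervals reached down to -0.06 for *Bach2* and -0.25 for *Bcl6*.

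*Pax5*, a gene that Blimp1 can repress, read 781 to 805 CPM in control mice and 778, 929 and 690 CPM in Pdap1-deficient mice, so that the controls lay within the Pdap1-deficient range. Its log2 fold change was 0.004 ± 0.12, with a 95% interval of -0.27 to 0.27. *Irf8* (0.003 ± 0.10) and *Spib* (-0.004 ± 0.10) also had estimates near 0, with intervals that ended between -0.22 and 0.22. *Pou2af1* was the only factor with non-overlapping groups in the lower direction, at 405 to 445 CPM in control mice and 365 to 397 CPM in Pdap1-deficient mice (log2 fold change -0.19 ± 0.10, adjusted p = 0.27). *Ebf1* (0.23 ± 0.12, adjusted p = 0.254), *Ikzf1* (0.08 ± 0.10) and *Ets1* (0.10 ± 0.10) were not called either. Without mouse 2, *Ebf1* was at 0.10 (adjusted p = 0.396), *Ets1* at 0.06 and *Pax5* at -0.10. In all, 5 of the 10 factors had groups that did not overlap in CPM, and 31.7% of all genes tested did.

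With LPS-BAFF-TGFβ fewer genes were called between genotypes, at 65 of 14079 (0.462%), and *Pdap1* itself was not among them (edgeR adjusted p = 0.0929). Over all genes the median absolute log2 fold change was 0.195, beside 0.231 with LPS-IL-4. The common biological coefficient of variation was 23.3%, beside 17.9%. None of the 10 factors was called by edgeR or by DESeq2, with 1 at an unadjusted edgeR p under 0.05 and 0 in DESeq2. *Prdm1* read 9.09, 6.94 and 7.92 CPM in control mice and 10.8, 10.5 and 7.97 CPM in Pdap1-deficient mice. These groups overlapped, and the log2 fold change was 0.28 ± 0.22 (adjusted p = 0.624). *Bcl6*, at 9.55, 9.61 and 10.6 CPM in control mice and 12.9, 13.6 and 11.1 CPM in Pdap1-deficient mice, did not overlap, with a log2 fold change of 0.35 ± 0.18 (adjusted p = 0.527). *Bach2* had the smallest unadjusted p of the 10 (0.0469), at 179, 137 and 153 CPM against 196, 227 and 167 CPM, with overlapping groups and a log2 fold change of 0.34 ± 0.15 (adjusted p = 0.469). Without mouse 2 these values were 0.26 for *Bcl6* and 0.20 for *Bach2*. The other member with groups apart was *Ets1* (281 to 302 CPM against 313 to 328 CPM, log2 fold change 0.16 ± 0.10), giving 2 of 10 beside 18.6% of all genes. *Ikzf3*, the factor nearest to the threshold with LPS-IL-4, had a log2 fold change of -0.05 ± 0.12 here. *Pou2af1*, with overlapping groups, was at -0.27 ± 0.14 (adjusted p = 0.527). *Pax5* was at 0.11, *Ebf1* at 0.02, *Ikzf1* at 0.02, *Spib* at -0.05 and *Irf8* at -0.11. Without mouse 2, *Pou2af1* was at -0.375, *Ebf1* at -0.10 and *Pax5* at 0.02.

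**Figure D2:**
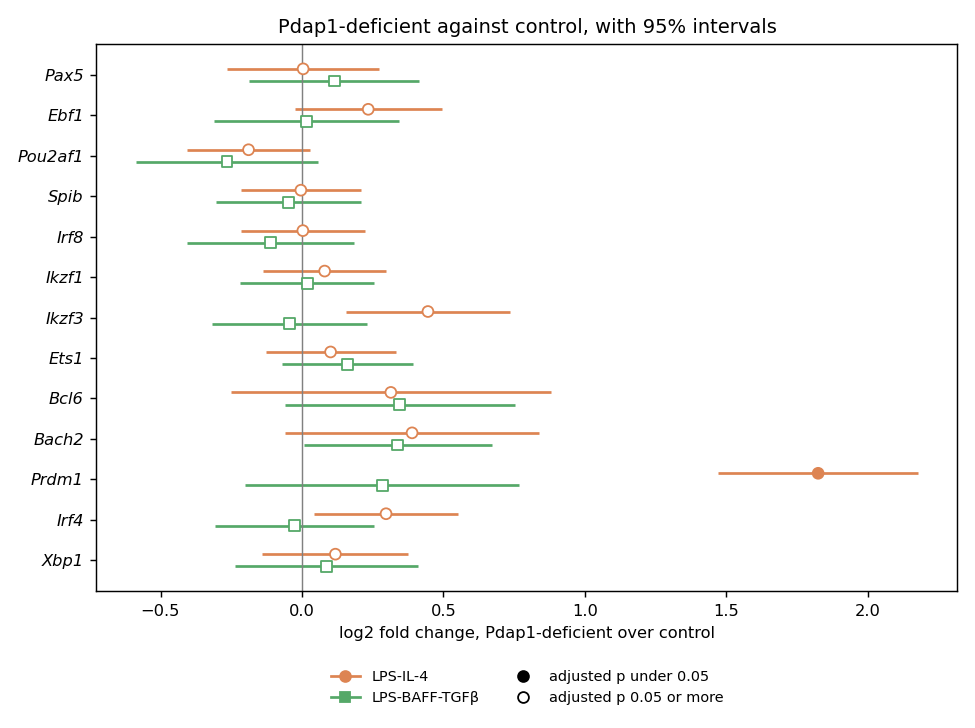
Log2 fold changes, Pdap1-deficient over control, of the 10 factors and of *Prdm1*, *Irf4* and *Xbp1* with LPS-IL-4 (circles) and LPS-BAFF-TGFβ (squares). Bars are 95% intervals of the edgeR fit and filled symbols have an adjusted p under 0.05. *Prdm1* with LPS-IL-4 (1.82) is the only filled symbol, and the factors range from -0.27 to 0.45.

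The balance between B cell factors and Blimp1 was also read within each library, as the log2 ratio of counts to *Prdm1*, which needs no scaling between libraries. With LPS-IL-4 the ratio of *Pax5* to *Prdm1* was 5.47, 5.80 and 5.29 in control mice and 3.94, 3.84 and 3.28 in Pdap1-deficient mice, a difference of -1.83. The ratio of *Bach2* differed by -1.49 and that of *Bcl6* by -1.55. In all 3 cases the groups did not overlap and the exact two-sided permutation test gave p = 0.1, the smallest value that 3 against 3 libraries allow. With LPS-BAFF-TGFβ the ratios of *Bcl6* and *Bach2* differed by 0.05 and 0.04 (exact permutation p = 0.8 and 0.7) and that of *Pax5* by -0.19 (exact permutation p = 0.2). All ratios share the *Prdm1* counts and are not independent of its difference. Between stimulations, *Bcl6* counts were below *Prdm1* counts in each LPS-IL-4 library and above them in each LPS-BAFF-TGFβ library, for example 60 against 221 and 601 against 572 in control mouse 1.

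**Figure D3:**
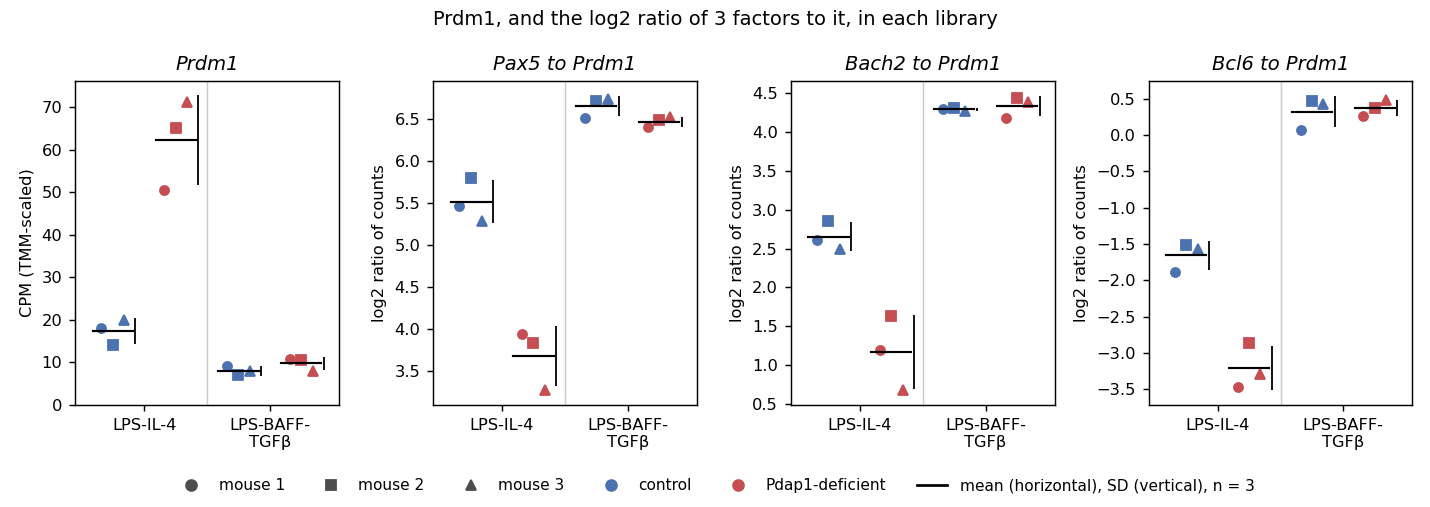
CPM of *Prdm1* (left) and log2 ratios of the counts of *Pax5*, *Bach2* and *Bcl6* to those of *Prdm1* in each library, with group means and SD (n = 3). The Pdap1-deficient LPS-IL-4 libraries lie below the controls in the 3 ratio panels, and the LPS-BAFF-TGFβ groups overlap.

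The 10 factors differed far more between stimulations than between genotypes. By the study's account, cells divide faster in LPS-BAFF-TGFβ than in LPS-IL-4, and both cultures were taken at 48 h. The part of cell division in these differences was not tested. In control cells 6 were up-regulated with LPS-BAFF-TGFβ relative to LPS-IL-4 (*Ikzf3*, *Spib*, *Ebf1*, *Ets1*, *Bach2* and *Bcl6*) and 3 were down-regulated (*Pou2af1*, *Ikzf1* and *Irf8*), while *Pax5* was not called. Over all 14882 genes tested, 9.99% were called higher and 9.33% lower. In Pdap1-deficient cells 3 factors were up-regulated (*Spib*, *Ebf1* and *Ets1*, beside 5.57% of 14617 genes) and the same 3 as in control cells were down-regulated (beside 5.89%). Any-direction calls covered 19.3% and 11.5% of genes. The median log2 fold change of the 10 was 0.46 and 0.44, beside 0.03 and -0.003 over all genes. The control and Pdap1-deficient comparisons share no library.

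Mouse numbers recur across the stimulations, so a fit with the mouse as a replicate block was also made. With it, 6 factors were called in control cells, with *Irf8* (adjusted p = 0.105), *Ets1* (0.0565) and *Ikzf1* (0.0673) lost, and 9 in Pdap1-deficient cells, with *Bcl6* (0.00295), *Bach2* (0.00239) and *Ikzf3* (0.000187) gained. Over all genes the number called moved in the same directions under the block, from 2874 to 1989 in control cells and from 1675 to 3854 in Pdap1-deficient cells. The 9 called under the block in Pdap1-deficient cells were the same 9 as in control cells without it. *Spib*, *Ebf1* and *Pou2af1* were called in both genotypes in every alternative run, as was *Ikzf3* in control cells. The other calls depended on single libraries: 4 factors were called in control cells without mouse 1 or mouse 2 of LPS-IL-4, and 3 in Pdap1-deficient cells without mouse 1 of either stimulation or mouse 3 of LPS-BAFF-TGFβ. All genes called fell in these fits too, to 1608 and 1714 in control cells and to 908 to 1335 in Pdap1-deficient cells.

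*Spib*, which encodes the Ets factor Spi-B, read 148, 146 and 167 CPM in control mice with LPS-IL-4 and 341, 289 and 288 CPM with LPS-BAFF-TGFβ, so its lowest value in the latter was far above the highest in the former. The fold change was 1.99 in control cells (log2 0.995 ± 0.10, adjusted p = 0.000291) and 1.91 in Pdap1-deficient cells (log2 0.935 ± 0.10, adjusted p = 0.000223), where it read 151 to 157 CPM and 277 to 304 CPM. *Ebf1* read 137, 133 and 134 CPM in control mice with LPS-IL-4 and 226, 272 and 303 CPM with LPS-BAFF-TGFβ. It was up-regulated 1.98-fold in control cells (adjusted p = 0.000746) and 1.68-fold in Pdap1-deficient cells (adjusted p = 0.00843), again with groups apart. *Pou2af1* changed the opposite way, from 445, 405 and 429 CPM to 299, 224 and 236 CPM in control mice and from 365 to 397 CPM to 185 to 234 CPM in Pdap1-deficient mice. Its log2 fold changes were -0.75 ± 0.12 (adjusted p = 0.00312) and -0.85 ± 0.12 (adjusted p = 0.00122).

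*Irf8* fell by 0.37 on the log2 scale in control cells (SE 0.11, adjusted p = 0.0489) and by 0.50 in Pdap1-deficient cells (SE 0.11, adjusted p = 0.0163). *Ikzf1*, which encodes Ikaros, fell by 0.37 (SE 0.08, adjusted p = 0.0133) and by 0.45 (SE 0.10, adjusted p = 0.0159). Its relative *Ikzf3* moved in the other direction: in control mice it read 225 to 231 CPM with LPS-IL-4 and 501, 414 and 449 CPM with LPS-BAFF-TGFβ, a 2-fold difference (log2 0.997 ± 0.09, adjusted p = 0.00019). In Pdap1-deficient cells the log2 fold change of *Ikzf3* was 0.49 ± 0.15 (adjusted p = 0.0723), and 0.61 (adjusted p = 0.000592) without both libraries of mouse 2. *Ets1*, an Ets factor known to restrain plasma cell differentiation, rose by 0.39 ± 0.08 and 0.43 ± 0.11 (log2, adjusted p = 0.0119 and 0.0299).

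Both germinal centre repressors rose with LPS-BAFF-TGFβ in control cells. *Bcl6* went from 4.94 to 6.75 CPM to 9.55 to 10.6 CPM in control mice (log2 fold change 0.84 ± 0.19, adjusted p = 0.0153) and from 4.59 to 8.94 CPM to 11.1 to 13.6 CPM in Pdap1-deficient mice (0.85 ± 0.25, adjusted p = 0.0612). The estimates with all libraries hardly differed and the groups did not overlap in either genotype. Without both libraries of Pdap1-deficient mouse 2 the log2 fold change of *Bcl6* there was 1.03 and passed the test (adjusted p = 0.0154). *Bach2* rose in control cells by 0.53 ± 0.11 (adjusted p = 0.0119), and in Pdap1-deficient cells its log2 fold change was 0.45 ± 0.25 (adjusted p = 0.34). There, its LPS-IL-4 value in mouse 2 (201 CPM) lay above LPS-BAFF-TGFβ values of the other mice, and without both libraries of mouse 2 the log2 fold change was 0.66 (adjusted p = 0.000558). *Prdm1* changed the opposite way, by -1.11 ± 0.18 (adjusted p = 0.00356) in control and -2.68 ± 0.18 (adjusted p = 2.09e-05) in Pdap1-deficient cells. *Xbp1*, the transcription factor of secretory expansion, also fell in both (-1.56 and -1.60). *Irf4* rose in control cells by 0.35 ± 0.09 (adjusted p = 0.0357, and 0.112 with the replicate block) and had a log2 fold change of 0.01 ± 0.12 in Pdap1-deficient cells.

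*Pax5* was the exception among the 10. It read 781 to 805 CPM with LPS-IL-4 and 730 to 843 CPM with LPS-BAFF-TGFβ in control mice, and 690 to 929 CPM and 732 to 943 CPM in Pdap1-deficient mice. The log2 fold changes of 0.02 ± 0.09 and 0.11 ± 0.15 had 95% intervals of -0.18 to 0.23 and -0.22 to 0.44. The groups of *Pax5* overlapped in both genotypes, while those of the other factors did not overlap in control cells (9 of 10, beside 37.8% of all genes) and 8 of 10 did not in Pdap1-deficient cells (beside 29.1%).

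**Figure D4:**
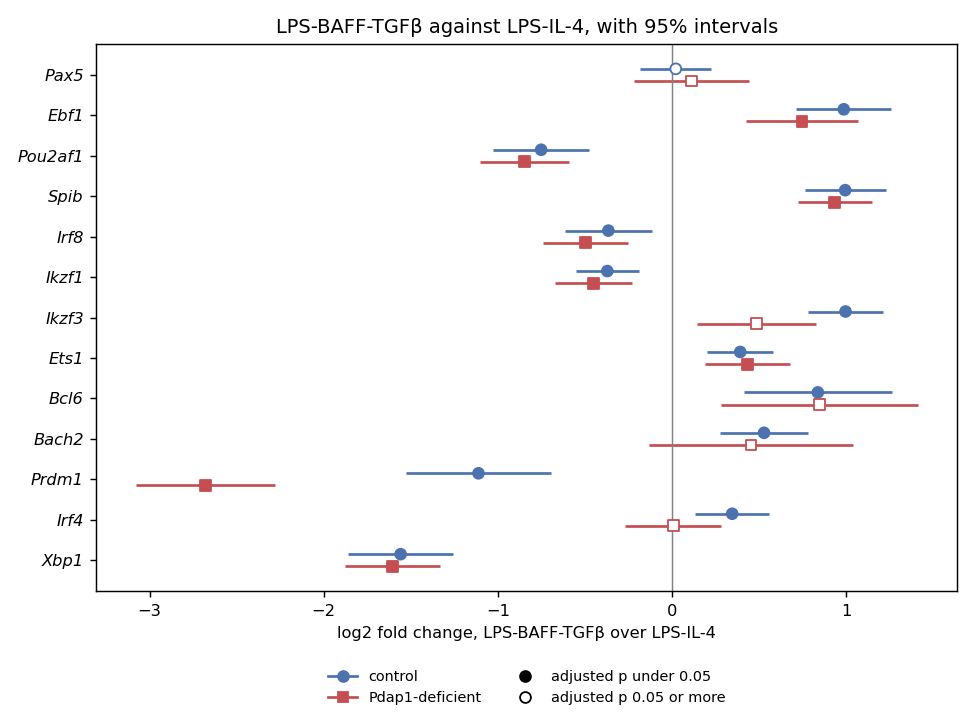
Log2 fold changes, LPS-BAFF-TGFβ over LPS-IL-4, of the 10 factors and of *Prdm1*, *Irf4* and *Xbp1* in control (circles) and Pdap1-deficient cells (squares), with 95% intervals of the edgeR fit. Filled symbols have an adjusted p under 0.05. *Spib* (0.995 and 0.935) and *Pou2af1* (-0.75 and -0.85) move alike in both genotypes, and *Prdm1* lies at -1.11 and -2.68.

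A model of the 12 libraries with an interaction of genotype and stimulation tested whether the effect of stimulation differed between genotypes. Among 15794 genes, 0% passed an adjusted p of 0.05 in edgeR, 755 had an unadjusted p under 0.05, and DESeq2 called 6. Of the 10 factors, 0 passed in either tool and 1 had an unadjusted edgeR p under 0.05. This was *Ikzf3*, whose difference between stimulations was lower in Pdap1-deficient cells by 0.51 ± 0.19 on the log2 scale (edgeR quasi-likelihood test, interval -0.92 to -0.11, unadjusted p = 0.0175, adjusted p = 0.983). Without the LPS-IL-4 library of Pdap1-deficient mouse 2 the term of *Ikzf3* was -0.33. The other 9 terms lay between -0.24 and 0.09. *Prdm1* had a term of -1.57 ± 0.26 (adjusted p = 0.217 in edgeR, where no gene was lower, 0.00165 in DESeq2, 0.15 with the mouse as a replicate block).

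RefSeq windows of the 250 bases before the start site (GRCm38.p6) were available for 8 of the 10 factors, *Ets1* and *Ikzf3* being the others, and comprised 12 windows. They were searched on both strands for short core motifs of the factors themselves and of the stimulated pathways. The promoters of *Spib* and *Ebf1*, the factors up-regulated in both genotypes with the largest fold, of *Bcl6*, and of the most strongly down-regulated *Pou2af1* are shown. Capitals mark matched motifs.

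*Spib*, chr7:44532072-44532321, minus strand: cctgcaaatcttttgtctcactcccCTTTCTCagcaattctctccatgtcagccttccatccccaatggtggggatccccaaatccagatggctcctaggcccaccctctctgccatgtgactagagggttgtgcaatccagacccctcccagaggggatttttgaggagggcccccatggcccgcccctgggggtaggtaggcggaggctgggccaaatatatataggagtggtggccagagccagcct
*Ebf1*, chr11:44619978-44620227, plus strand: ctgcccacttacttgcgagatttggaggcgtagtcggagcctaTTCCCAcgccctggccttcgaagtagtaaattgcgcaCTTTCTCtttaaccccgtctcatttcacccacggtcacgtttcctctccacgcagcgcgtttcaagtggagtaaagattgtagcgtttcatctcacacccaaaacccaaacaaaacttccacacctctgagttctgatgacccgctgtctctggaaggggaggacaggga
*Bcl6*, chr16:23988853-23989102, minus strand: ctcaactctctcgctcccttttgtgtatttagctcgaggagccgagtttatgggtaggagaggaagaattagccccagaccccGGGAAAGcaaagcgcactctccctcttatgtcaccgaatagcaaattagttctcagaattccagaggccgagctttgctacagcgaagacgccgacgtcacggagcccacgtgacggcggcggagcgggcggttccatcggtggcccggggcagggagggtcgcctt
*Pou2af1*, chr9:51213440-51213689, plus strand: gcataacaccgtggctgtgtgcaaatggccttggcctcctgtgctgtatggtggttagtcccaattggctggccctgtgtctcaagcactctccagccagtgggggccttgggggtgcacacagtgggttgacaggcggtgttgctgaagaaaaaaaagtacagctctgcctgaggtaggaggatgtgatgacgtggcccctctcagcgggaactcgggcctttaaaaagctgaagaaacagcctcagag

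These windows overlap no annotated exon. The Blimp1 core GNGAAAG occurred in 5 of the 12 windows, beside 19.4% of all 32851 windows: in those of *Spib* (225 bases before the start), *Ebf1* (170), *Bcl6* (167), *Pax5* (191) and *Bach2* (18). The windows of *Bach2* (chr4:32417185-32417434), *Ebf1* and *Ikzf1* precede start sites inside the annotated gene. For these genes the bases before the gene's annotated first base were not searched. *Irf8* and *Bcl6* have a window before the gene and another inside it. The Ikaros core TGGGAA occurred in 2 windows, of *Ebf1* and *Irf8* (21.6% of all windows). The *Irf8* match lies in the window inside that gene (chr8:120738389-120738638). An IRF core GAAANNGAA occurred in the upstream window of *Ebf1* (7.13%), which overlaps an exon of *Ebf1* and is not shown. No window held the octamer ATTTGCAT (1.6% of all windows), the Spi-B core GAGGAAGT (2.44%), the EBF1 core TCCCNNGGG (5.6%), the AP-1 and Bach2 core TGAGTCA (4.46%), the NF-κB core GGGACTTTC (0.289%), the Bcl6 core TTCCTAGAA (0.347%) or the SMAD palindrome GTCTAGAC (0.167%). The searched letters of Blimp1 and IRF can overlap, since both hold GAAA.

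Other genes of the network were read from lists written by hand. Their counts stand beside the shares of all genes called between stimulations, 9.99% higher and 9.33% lower in control cells and 5.57% and 5.89% in Pdap1-deficient cells, and beside 4.92% and 0.462% called in either direction between genotypes in the order LPS-IL-4, LPS-BAFF-TGFβ. In Pdap1-deficient cells the calls of *Id2*, *Mafk* and *Cd80* between stimulations were lost without the LPS-BAFF-TGFβ library of mouse 2, and that of *S1pr1* without its LPS-IL-4 library. Of 22 other B cell transcription factors tested, 9 rose and 6 fell in control cells with LPS-BAFF-TGFβ, and 5 rose and 4 fell in Pdap1-deficient cells. *Myb*, a regulator of early lymphoid development, rose most (log2 fold change 2.81 ± 0.13 and 2.79 ± 0.21), with *Tcf4*, which encodes the E protein E2-2 (0.96 and 0.65), *Mef2b* (1.64 and 0.76) and the E protein inhibitor *Id2* (1.18 and 1.12). *Lef1*, a Wnt pathway factor, fell most (-2.62 ± 0.14 and -2.30 ± 0.32), with *Fli1* (-0.66 and -0.75) and *Bcl11a* (-0.54 and -0.51). Between genotypes, *Tcf4* was the sole member called, with LPS-IL-4 higher in Pdap1-deficient cells (0.48 ± 0.11, adjusted p = 0.0343). The median log2 fold change of the list was 0.21 and 0.02 between stimulations and 0.18 and 0.03 between genotypes.

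Of 17 partners and corepressors, 2 rose and 3 fell in control cells with LPS-BAFF-TGFβ, and 2 rose and 4 fell in Pdap1-deficient cells. The 2 of 17 that rose in control cells are near the share of all genes. *Bcor*, a corepressor that binds Bcl6, rose by 1.03 ± 0.10 and 1.15 ± 0.10, and the Groucho family corepressors *Tle3* and *Tle4* moved apart, *Tle3* by 1.40 and 1.16 and *Tle4* by -1.04 and -0.83. *Mafk*, which pairs with Bach2, fell by 0.46 and 0.47 on the log2 scale. With LPS-IL-4, 2 of the 17 were higher in Pdap1-deficient cells: *Bach1*, a relative of Bach2 (0.85 ± 0.12, adjusted p = 0.00576), and *Fbxo11*, a ubiquitin ligase subunit that targets Bcl6 for degradation (0.55 ± 0.10, adjusted p = 0.0144). None was called between genotypes with LPS-BAFF-TGFβ. The list's median was 0.03 in each genotype between stimulations, beside 0.03 and -0.003 over all genes, and 0.03 and 0.06 between genotypes.

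Of 9 target genes of Pax5 and Ebf1, 3 rose and 4 fell in control cells, and 2 rose and 4 fell in Pdap1-deficient cells. *Cr2* (complement receptor 2; 2.76 ± 0.17 and 2.56 ± 0.11) and *Cd72* (2.62 ± 0.13 and 2.41 ± 0.13) rose, whereas *Cd79b* (-1.24 and -1.37), *Cd22* (-0.90 and -1.10), *Ms4a1* (-0.78 and -0.86) and *Fcer2a* (-1.48 and -1.08) fell. Targets of the same factors thus moved in opposite directions, with medians of -0.17 and -0.06. *Pax5* itself was not called, and *Ebf1* was called higher in both genotypes. Between genotypes the sole call was *Fcer2a*, which encodes CD23, at 391, 436 and 390 CPM in the LPS-IL-4 libraries of control mice and 237, 204 and 206 CPM in those of Pdap1-deficient mice (log2 fold change -0.92 ± 0.11, adjusted p = 0.00214). With LPS-BAFF-TGFβ its log2 fold change was -0.50 ± 0.15 (adjusted p = 0.309). The median of the list between genotypes was 0.04 and -0.13.

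Of 9 genes that Bcl6 can repress, 2 rose (*Bcl2*, 1.14 ± 0.08 and 1.04 ± 0.13, and *Cd80*, 1.91 and 1.01) in both genotypes with LPS-BAFF-TGFβ. In control cells 4 fell, and in Pdap1-deficient cells 3. *Gpr183*, a migration receptor (-1.59 ± 0.12 and -1.10 ± 0.13), the sphingosine receptor *S1pr1* (-1.92 ± 0.21 and -2.63 ± 0.50) and *Ccnd2* (-0.70 and -0.97) fell in both. The list's medians were -0.27 and -0.04. *S1pr1* was also the sole member called between genotypes, higher in Pdap1-deficient cells with LPS-IL-4 (0.82 ± 0.16, adjusted p = 0.0234). Of 8 germinal centre genes, 5 and 4 could be tested between stimulations. In control cells 2 rose (*Fas* and *Mybl1*) and 2 fell (*Ezh2* and *Neil1*), and in Pdap1-deficient cells 1 rose and 1 fell. *Fas* rose in both genotypes (1.42 ± 0.16 and 1.28 ± 0.21), *Ezh2*, the H3K27 methyltransferase, fell in both (-0.67 and -0.98), and none was called between genotypes.

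Of 8 plasma cell factors, 7 were tested in each comparison. With LPS-IL-4, *Prdm1* and the elongation factor *Ell2* (0.48 ± 0.09, adjusted p = 0.0208) were up-regulated in Pdap1-deficient cells and the other 5 were not called, *Irf4* at 0.30 ± 0.12 (adjusted p = 0.15) and *Xbp1* at 0.12 ± 0.12. Without Pdap1-deficient mouse 2, *Irf4* was called, at 0.40 (adjusted p = 0.00228), and *Xbp1* was at 0.20. *Sdc1*, the plasma cell surface marker, had a log2 fold change of -0.76 ± 0.23 (adjusted p = 0.0858). With LPS-BAFF-TGFβ none of the 7 was called between genotypes. Between stimulations 4 fell and 1 rose in control cells, with *Sdc1* (-2.02 ± 0.30) and *Jchain*, the joining chain of IgM and IgA (-1.67 ± 0.40), beside *Xbp1* and *Prdm1*, and 3 fell in Pdap1-deficient cells. The medians of the list were 0.30 and 0.28 between genotypes, and -1.11 and -0.98 between stimulations. Each list comparison uses the libraries of the comparisons above.

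Similarity of pattern was measured as the root mean square difference of log2 CPM, centred on each gene's mean, over the 12 libraries, among genes with a mean of at least 10 CPM. Lower values mean closer patterns. Among the factors, *Irf8* and *Ikzf1* were the most alike (0.12), followed by *Ebf1* and *Ikzf3* (0.17). For the 9 factors called in a comparison, the nearest 3 genes lay at 0.067 to 0.188. *Ikzf1* was nearest to *Ifngr2* (0.067), *AI467606* and *Rhof*, and *Irf8* to *Cd74* (0.072), the invariant chain of antigen presentation, *Cmtm6* and *Larp1*. *Pou2af1* was nearest to *H2-Eb1* (0.079), an MHC class II chain, *Ccnd2* and *Ctsz*. The pattern of *Ikzf3* was nearest to those of *Akap13* (0.072), *Pecam1* and *Optn*, that of *Ets1* to *Tln1* (0.072), *Herc2* and *March2*, and that of *Bach2* to *Mgat5* (0.089), *Cmip* and *Arhgap17*. *Spib* was nearest to *Tmem110* (0.102), *Prcp* and *Sh3pxd2a*, *Ebf1* to *Cdk19* (0.113) and *Nlrc4*, and *Bcl6*, with the lowest counts, to *Herc3* (0.169), *Nfat5* and *Cux1*.

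The counts of some factors may be affected, by reads gained or lost, where genes on the opposite strand overlap them. *Pax5* shares exonic bases with *Gm12462* and *5730488B01Rik*, listed at mean levels of 19.4 and 13.5 CPM, and *Bach2* with *Bach2os* at 12.6 CPM. The strand setting used in counting is not given in the sources used here. These levels lie below those of *Pax5* and *Bach2*, and the effect of the shared bases on their counts was not tested.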

How the data were processed

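The 12 libraries were grouped by the labels' genotype and class switch, with mouse numbers from the titles. The labels also name CH12 cells and an mRNA kit, whereas the study's methods describe primary splenic B cells and rRNA-depleted RNA, which was followed. The authors deposited read counts per Ensembl gene without normalization, made with Trim Galore 0.6.1, STAR 2.6 and HTSeq 0.9.1 on GRCm38 per the submitters' notes, and a second table of signal, the deposited count divided by 1 size factor per library, used as a check. Annotation release and strand setting are not given in the sources used here.

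Genes were tested with edgeR 4.0.16 (R 4.3.3; filterByExpr, TMM, robust quasi-likelihood F test) within each comparison, with Benjamini-Hochberg adjustment over all genes tested at 0.05. SEs and 95% intervals come from these fits. Alternatives were DESeq2 1.42.0, its size factors in edgeR, no filter, a replicate block, 1 fit of all 12 libraries, thinning, and each library left out. Steps were tested on simulated data. Symbols, positions and exon lengths came from GENCODE M21 (GRCm38). Over all genes the common biological coefficient of variation was 17.9% to 23.3% within the comparisons. Whether total counts or the spread between mice limited the precision of each factor was not tested.

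The mouse is shared between stimulations, and the deviations of its cultures from their group means correlated at 0.293 to 0.622 across genes in Pdap1-deficient mice and at -0.181 to 0.341 in control mice. Within a stimulation the number marks no shared animal. The factors and lists were chosen with earlier results of these data known. Named genes are the 10 factors, *Pdap1*, *Prdm1*, *Irf4*, *Xbp1*, called genes of each list (at most 4 per direction, by adjusted p) and the 3 genes nearest to each called factor, of which 1 is not reported here. Other genes named were chosen after their values were seen. Leaving out both libraries of a mouse was added after seeing the data.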

Additional observations from a re-analysis of the deposited data

How the results depend on the processing

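No count of factors called between genotypes with LPS-BAFF-TGFβ changed in any alternative (0 throughout). With LPS-IL-4, DESeq2 and the fit with no filter each called 1 factor, *Ikzf3*, and leaving out libraries gave 0 to 1. Between stimulations, leaving out libraries gave 4 to 9 factors called in control cells and 3 to 9 in Pdap1-deficient cells. In control cells the 4 came without control mouse 1 or mouse 2 of LPS-IL-4, and in Pdap1-deficient cells the 9 came without mouse 2 of LPS-IL-4 or both of its libraries and the 3 without mouse 1 of LPS-IL-4 or without mouse 1 or mouse 3 of LPS-BAFF-TGFβ. The cause was not tested.

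The number of all genes called between genotypes with LPS-IL-4 was 741, and 1229 in DESeq2, 1694 with no filter and between 69 and 1759 with libraries left out, the ends being the fits lacking control mouse 2 and Pdap1-deficient mouse 1. With LPS-BAFF-TGFβ it was 65, and 174, 257, 133 with all 12 libraries in one fit, and 19 to 116. Between stimulations libraries left out gave 1608 to 4858 in control cells and 908 to 2235 in Pdap1-deficient cells (2398 without both libraries of mouse 2), the latter group 3854 with the replicate block. For the genotype by stimulation term DESeq2 called 6, no filter 1, and libraries left out gave 0 to 1.

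Signs reversed for the following values, none of them called in the reported fit. Between genotypes with LPS-IL-4, *Pax5* became -0.018 in DESeq2, -0.004 with its size factors and -0.005 with the replicate block, *Irf8* -0.018 and -0.005 in the first pair, and *Spib* 0.002 with no filter, 0.006 in one fit and 0.014 thinned. With libraries left out *Pax5* ranged from -0.1 to 0.087, *Irf8* from -0.034 to 0.037, *Spib* from -0.049 to 0.043 and *Xbp1* from -0.005 to 0.199. With LPS-BAFF-TGFβ, *Ebf1* became -0.049 and *Ikzf1* -0.046 with no filter, and the ranges were -0.093 to 0.029 for *Spib*, -0.101 to 0.112 for *Ebf1*, -0.026 to 0.057 for *Ikzf1*, -0.129 to 0.023 for *Ikzf3*, -0.095 to 0.038 for *Irf4* and -0.047 to 0.199 for *Xbp1*. Between stimulations, *Pax5* in control cells became -0.002 in DESeq2 and ranged from -0.021 to 0.08, *Pdap1* there from -0.051 to 0.671, and *Irf4* in Pdap1-deficient cells became -0.007 in DESeq2, -0.021 with no filter and -0.003 thinned and ranged from -0.079 to 0.094. The interaction terms of *Bcl6* and *Ets1* became -0.362 and -0.014 thinned, and terms ranged from -0.005 to 0.213 (*Pax5*), -0.214 to 0.249 (*Bcl6*), -0.214 to 0.248 (*Bach2*, 0.125 without both libraries of Pdap1-deficient mouse 2), -0.201 to 0.004 (*Irf8*), -0.122 to 0.017 (*Spib*, 0.051 without both libraries of control mouse 1), -0.179 to 0.035 (*Pou2af1*, 0.012 without the same libraries), -0.041 to 0.103 (*Ets1*) and -0.18 to 0.067 (*Xbp1*). With LPS-BAFF-TGFβ the difference in log2 ratio to *Prdm1* ranged from -0.076 to 0.124 for *Bcl6* and from -0.008 to 0.117 for *Bach2*. The replicate block changed no call of a factor other than those given between stimulations. With 55 to 147 counts in 11 of the 12 libraries, *Bcl6* is the factor whose value depth limits most.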
